A study of Mus musculus with 12 samples.

Results

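The 10 genes described here were 4 Janus kinases (Jak1, Jak2, Jak3 and Tyk2), 3 Stat transcription factors (Stat3, Stat5a and Stat5b) and 3 inhibitors of the Socs family (Socs1, Socs3 and Cish). They were chosen by name and matched from their Ensembl mouse identifiers, and they are 10 of the 45669 rows in the count table. The cells were CD4+ T cells purified from lymph nodes of C57BL6 mice aged 12 weeks, by removing other cells with magnetic beads. The genotypes were Anaef/Anaef, homozygous for the point-mutant allele Rasgrp1Anaef (Anaef), and WT/WT (WT). Rasgrp1 is a Ras exchange factor that acts below the T cell receptor, and Anaef changes its protein in every cell of the animal that makes it.

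Total RNA gave 4 Anaef libraries (replicates 5 to 8) and 4 WT libraries (replicates 1 to 4). Ribosome profiling, which reads the fragments of mRNA that nuclease leaves under a ribosome (RPF), gave 2 Anaef pools (3B and 4B) and 2 WT pools (1B and 2B), made from the cells left over after 1 minute in cycloheximide. The labels do not say which animals were combined in which pool, so p-values reflect the spread among these libraries, which may be partly technical. The libraries held 2868943 to 3464868 counts in Anaef RPF, 4044330 to 7009342 in WT RPF, 18580747 to 39467754 in Anaef total RNA and 15326842 to 40046317 in WT total RNA.

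Cytokine receptors have no kinase of their own. They carry Janus kinases on their tails, and when a cytokine brings the chains together the kinases phosphorylate the receptor and the Stat proteins that dock there. The phosphorylated Stats pair, enter the nucleus and switch on genes. Among these are Cish, Socs1 and Socs3, whose proteins bind the receptor or the kinase and end the signal. In CD4+ T cells IL-2 and IL-7 act through Jak1, Jak3 and the Stat5 pair, and IL-6 acts through Jak1 and Stat3.

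Sequences are shown first for 2 places, of which only the Stat5 pair bears on how the counts can be read. The Stat5 pair are close copies, which matters for any comparison of their counts. Their coding sequences were identical at 2128 of 2397 aligned positions (88.8%), and bases 571 to 894 of both, counted from the first base of the start codon, were the same without a break for 324 bases. The first 60 bases of that run, bases 571 to 630, are printed here in GENCODE's transcripts of GRCm38, and no letter differs between the genes.
Stat5a and Stat5b: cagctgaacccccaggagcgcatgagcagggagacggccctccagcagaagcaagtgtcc
Of all 28-base windows in the coding sequence, 37.5% of those of Stat5a and 37.8% of those of Stat5b occurred in the other gene. A fragment from such a window cannot be assigned to one of the pair, and the sources used here do not say how the submitters counted such reads. Compared on the sense strand of a main transcript of each gene, no other pair of these 10 genes shared a 28-base window. Opposite strands, on which Stat3 and Stat5a overlap, were not compared.

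The other sequences are the letters in the promoters of 2 inhibitors to which Stat dimers are known to bind. The motif searched was TTCNNNGAA, which reads the same on both strands, in RefSeq promoter windows of 300.0 bases (250 before and 50 after the start, build GRCm38.p6). It was found in 2726 of 32851 windows (8.30%), and more than once in 150 windows (0.457%). All 10 genes matched the table, with 12 windows in all, since Stat5a and Stat5b have 2 each. The motif was in the windows of Socs3 and Cish and in no other. It began 154 bases before the start of Socs3 and at bases 1 and 12 from the start of Cish. The stretches printed below, with flanking bases, are chr11:117969507-117969525 (minus strand) for Socs3 and chr9:107296654-107296683 (plus strand) for Cish. Capitals mark the motif in each stretch.
Socs3: cagccTTCTTAGAAgggag
Cish: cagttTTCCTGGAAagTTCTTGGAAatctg
The same motif with 1 more base between its arms, present in 6.95% of all windows, was in none of the 12. These matches describe the letters alone, since binding was not measured.

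Some rows could not be read as 1 gene. Jak3 and Insl3, which lie on the same strand and share 404 exon bases, were deposited as 1 joined row, so every Jak3 value below is for that row. Tyk2 shares 554 exon bases with the antisense gene 1700084C06Rik, Cish shares 261 with Gm17040 and 479 with Gm17041 on the opposite strand, and Stat3 and Stat5a share 72 at their facing ends. Reads of such partners may be mixed, because the sources used here name no strand setting for the counting.

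Rasgrp1, the gene that carries Anaef, gave 607, 683, 460 and 576 CPM (counts scaled to a common library total) in the Anaef total RNA libraries, against 470, 479, 610 and 453 CPM in the WT libraries. In RPF it gave 124 and 104 CPM in Anaef pools, against 150 and 173 CPM in WT pools. The levels do not check the labels, because the allele alters the protein. The CD4 T cell markers were present throughout, with Cd4 at 1458 ± 424 CPM in Anaef and 1146 ± 83.3 CPM in WT total RNA (SD, n = 4 each).

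In neither genotype were the members expressed at like levels. To compare genes, CPM were divided by the exon length for total RNA and by the coding length for RPF, both in kilobases (kb). Jak1, the kinase shared by most cytokine receptors of T cells, was far above the rest in both assays. In total RNA it stood at 98.0 ± 7.04 CPM per kb in Anaef and 93.1 ± 13.2 CPM per kb in WT (SD, n = 4 each). The next gene, Stat3, stood at 15.2 ± 1.16 CPM per kb in Anaef and 14.6 ± 1.14 CPM per kb in WT.

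Below Jak1, the order in Anaef total RNA was Stat3, Jak3, Jak2, Stat5b, Socs3, Tyk2, Stat5a, Cish and Socs1, and in WT it was the same except that Jak2 came before Jak3. The libraries of Stat3, Jak3 and Jak2 overlapped as neighbours in both genotypes, as did those of Socs3 and Tyk2 and those of Stat5a and Cish. Stat5b and Socs3 overlapped in WT and lay apart in Anaef. Socs1 was lowest, at 0.312 ± 0.226 CPM per kb in Anaef and 0.575 ± 0.205 CPM per kb in WT, below every library of Cish. With the length of the main transcript in place of all exons, Tyk2 came before Socs3 in both genotypes and Jak3 before Jak2 in WT. By that length Stat3 lay apart from Jak3 in both genotypes. Their means were 32.1 and 20.8 CPM per kb in Anaef, and 30.9 and 17.9 CPM per kb in WT. Jak3 and Jak2 then lay apart in Anaef and overlapped in WT.

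The order differed in RPF, where it was the same in both genotypes: Jak1, Stat3, Stat5b, Stat5a, Jak3, Socs3, Jak2, Tyk2, Socs1 and Cish. Jak1 stood at 641 ± 38.4 CPM per kb in Anaef and 616 ± 41.4 CPM per kb in WT, and Cish at 10.3 ± 6.62 CPM per kb in Anaef and 6.80 ± 2.85 CPM per kb in WT (SD, n = 2 each). In Anaef the pools of Socs3 overlapped those of Jak2, and the pools of Socs1 overlapped those of Cish, while all other neighbours lay apart. With the coding length of the main transcript the order was the same. Jak3 (97.6 to 104.3 CPM per kb) then overlapped Stat5a (103.0 to 106.7 CPM per kb) in Anaef. Stat5a stood at place 8 in total RNA and at place 4 in RPF.

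**Figure D1:**
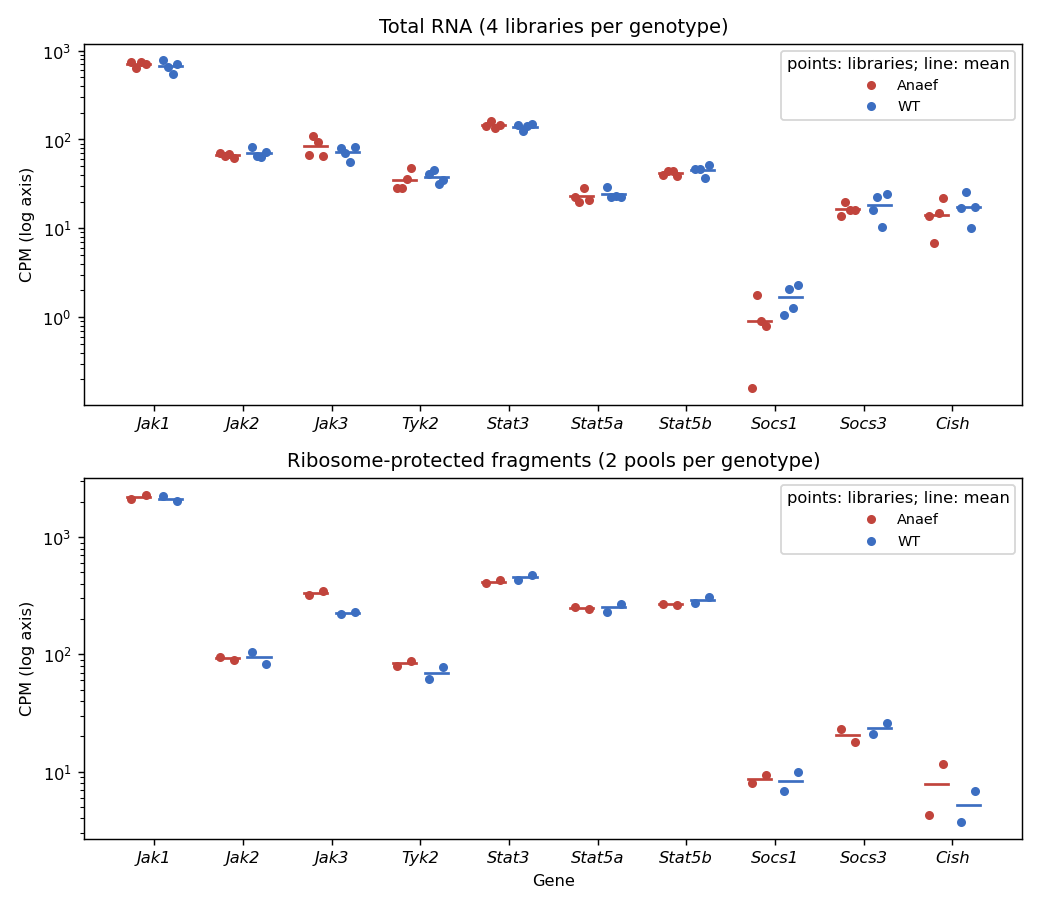
Level of each gene in every library (CPM on a log axis, not divided by length), in total RNA above and RPF below, with Anaef left of WT; points are libraries and short lines are group means. Jak1 is highest in both assays, Anaef replicate 5 has the lowest Socs1 point (0.158 CPM), and the Jak3 pools of Anaef (322 and 344 CPM) lie above those of WT (220 and 230 CPM).

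The comparison of genotypes asked whether the RNA for the machinery of cytokine signalling is present, or read by ribosomes, at another level in Anaef cells. In total RNA none of the 10 genes passed edgeR's quasi-likelihood test at an adjusted p of 0.05, where 0.0224% of 17876 genes did (4 genes), and none had an unadjusted p under 0.05, where 5.62% of genes did. The Anaef and WT libraries overlapped for every one of the 10, and 3.59% of all genes had groups that did not overlap. Of the members 7 were below 0 on the log2 scale, as were 49.3% of all genes. The median log2 fold change of Anaef over WT was -0.11 over the members and 0.01 over all genes. Beside this, the 6 plasma cell markers summed to 333 to 737 CPM in Anaef and 1155 to 5241 CPM in WT total RNA, the 8 myeloid and dendritic markers to 16.5 to 22.0 CPM in Anaef and 27.2 to 31.0 CPM in WT, and the 8 B cell markers to 15.9 to 40.3 CPM in Anaef and 36.1 to 75.9 CPM in WT. The plasma cell and myeloid sums did not overlap between genotypes, none of these markers was at 0 in every library, and Igha, the constant region of IgA, passed edgeR's test (log2 fold change -1.98, SE 0.22, adjusted p = 0.0268). The 7 CD4 T cell markers summed to 2885 to 4526 CPM in Anaef and 2631 to 2937 CPM in WT total RNA, which overlapped. All 7 were above 0 on the log2 scale, with a median of 0.35. The part of any of these cell types in the members' values was not tested. In bulk samples, fewer cells of a type and less RNA per cell cannot be told apart.

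Among the kinases, Jak1 gave 742, 637, 748 and 705 CPM in Anaef total RNA, against 776, 658, 550 and 707 CPM in WT. The lowest library of each genotype, Anaef replicate 6 and WT replicate 3, stood somewhat below the others, and the log2 fold change was 0.07 with a standard error (SE) of 0.14. Jak2, which serves the receptors of IL-12 and interferon gamma, gave 70.0, 65.1, 68.3 and 62.6 CPM in Anaef and 82.2, 64.5, 62.6 and 72.5 CPM in WT. Its log2 fold change was -0.08 (SE 0.14).

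Jak3, which pairs with the common gamma chain of the IL-2 receptor family, gave 67.1, 108.6, 92.5 and 65.5 CPM in Anaef total RNA, against 80.0, 71.0, 55.5 and 81.3 CPM in WT. Anaef replicates 6 and 7 lay above the WT range, and replicates 5 and 8 lay inside it. The log2 fold change was 0.21 (SE 0.20). Tyk2, the partner of Jak1 or Jak2 at the interferon alpha and IL-12 receptors, gave 28.6, 28.2, 35.6 and 47.2 CPM in Anaef and 40.8, 44.8, 31.2 and 34.6 CPM in WT, a log2 fold change of -0.12 (SE 0.21).

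The Stat transcripts were close between genotypes. Stat3, which IL-6 and IL-21 activate, ranged from 133 to 160 CPM in Anaef and from 124 to 150 CPM in WT (log2 fold change 0.05, SE 0.13). Stat5a and Stat5b, which IL-2 and IL-7 activate, ranged from 19.9 to 28.5 and from 38.9 to 44.6 CPM in Anaef, against 22.7 to 29.5 and 37.2 to 51.9 CPM in WT. Their log2 fold changes were -0.10 (SE 0.19) and -0.13 (SE 0.16).

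Of the Socs transcripts, Socs1 had few counts, the fewest of the 10 genes. Socs3 had 132 to 1034 counts in the total RNA libraries and Cish 127 to 1170. Socs1, which blocks the kinase site of Jak proteins, was read from 3, 51, 40 and 28 counts in Anaef replicates 5 to 8 and from 40, 95, 16 and 57 counts in WT replicates 1 to 4. That gave 0.158, 1.76, 0.917 and 0.798 CPM in Anaef, against 1.07, 2.07, 1.27 and 2.28 CPM in WT. In Anaef 3 libraries lay below every WT library and replicate 6 lay inside the WT range. The log2 fold change was -0.87 (SE 0.65), with an edgeR adjusted p of 0.942 and a range of -1.39 to -0.53 over the alternatives.

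Socs3, which docks on the receptor chain that IL-6 uses, gave 13.7, 19.7, 16.1 and 16.3 CPM in Anaef, against 16.3, 22.5, 10.4 and 24.1 CPM in WT (log2 fold change -0.16, SE 0.28). All Anaef libraries lay inside the WT range. Cish, an inhibitor that Stat5 induces after IL-2, gave 13.8, 6.85, 14.8 and 21.8 CPM in Anaef and 16.9, 25.5, 10.0 and 17.5 CPM in WT. Its lowest library was in Anaef and its highest in WT, with the others mixed, and the log2 fold change was -0.29 (SE 0.37).

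In RPF none of the 10 genes passed the adjusted threshold, as none of the 9710 genes tested did (0%). At an unadjusted p under 0.05 Jak3 alone stood out, where 11.9% of genes did. For 4 of the 10 genes the Anaef pools did not overlap the WT pools, which held for 44.8% of all genes. Jak3 and Tyk2 were above WT in both Anaef pools (22.3% of all genes), and Stat3 and Stat5b were below it (22.5%). Of the members 5 were below 0, as were 49.2% of all genes. With 2 pools a genotype, such a separation is common, and the members' share was near that of all genes.

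Jak3 had 322 and 344 CPM in Anaef pools, against 220 and 230 CPM in WT pools. Within each genotype the pools were close, and the Anaef pools were the higher. The log2 fold change was 0.57 (SE 0.13), with an unadjusted p of 0.00380 and an adjusted p of 0.344 from edgeR's quasi-likelihood test. With DESeq2 Jak3 passed, at an adjusted p of 0.00157, while over all the alternatives its log2 fold change ran from 0.51 to 0.62 and its adjusted p from 0.00157 to 1.00.

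Several marker sums also lay apart between genotypes in RPF, where 44.8% of all genes had pools that did not overlap. The 4 markers of regulatory T cells, which live on IL-2 from other cells, summed to 83.4 to 90.7 CPM in Anaef RPF and 58.3 to 59.9 CPM in WT RPF, and to 79.5 to 130.2 CPM in Anaef and 74.1 to 103.8 CPM in WT total RNA. None of these 4 was at 0 in either assay. Within that list, the RPF pools of Foxp3 overlapped (log2 fold change 0.25, SE 0.29), while those of Ikzf2 and Ctla4 did not. The 6 plasma cell markers summed to 2256 to 6638 CPM in Anaef RPF and 11184 to 22279 CPM in WT RPF, and the 8 B cell markers to 21.2 to 35.2 CPM in Anaef and 46.6 to 86.8 CPM in WT, with Cd22 at 0 in every pool. The sums of the CD8 T cell, NK and gamma-delta, endothelial and stromal, and erythroid lists were also lower in both Anaef pools. Those of the CD4 T cell and myeloid lists overlapped. Single markers did not all follow the sums of their lists. Pecam1 made up most of the endothelial and stromal sum, with a mean of 151 CPM in Anaef and 168 CPM in WT. The pools of Cd8b1, Trdc, Klrd1 and Bpgm (log2 fold change 0.31, SE 0.32) overlapped, while those of Eomes and Hbb-bs were lower in Anaef. The part of any of these cells in the Jak3 values was not tested.

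Tyk2 gave 80.3 and 87.9 CPM in Anaef RPF, against 61.6 and 77.9 CPM in WT RPF, a log2 fold change of 0.27 (SE 0.18, edgeR adjusted p = 0.588). The gap between the genotypes was smaller than that between the WT pools. Jak1 gave 2122 and 2310 CPM in Anaef and 2233 and 2031 CPM in WT (log2 fold change 0.06, SE 0.14). Jak2 gave 95.2 and 90.02 CPM in Anaef and 105.7 and 83.0 CPM in WT (-0.03, SE 0.18).

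The Stats were level in RPF as well. Stat3 gave 404 and 428 CPM in Anaef pools, against 435 and 474 CPM in WT pools (log2 fold change -0.13, SE 0.13). Stat5a gave 254 and 245 CPM in Anaef, against 232 and 271 CPM in WT (-0.01, SE 0.14), and Stat5b gave 271 and 264 CPM in Anaef, against 276 and 308 CPM in WT (-0.13, SE 0.13). No adjusted p among them was under 0.733 by edgeR's test.

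Of the inhibitors in RPF, Socs1 gave 8.03 and 9.42 CPM in Anaef and 6.79 and 9.95 CPM in WT (log2 fold change 0.08, SE 0.34). Socs3 gave 23.2 and 17.8 CPM in Anaef and 21.1 and 26.0 CPM in WT (-0.19, SE 0.24). Cish rested on 15 and 33 counts in Anaef pools and 25 and 28 counts in WT pools, or 4.30 and 11.5 CPM in Anaef and 3.69 and 6.80 CPM in WT. Its log2 fold change of 0.61 had an SE of 0.56, the Anaef pools spanned the WT pools, and its sign depended on 1 pool: the values with 1 library left out ran from -0.25 to 1.17, the lowest being without Anaef 4B.

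The change in RPF relative to total RNA between genotypes was tested as an interaction over the 12 libraries. None of the members passed, as none of the 19031 genes tested did (0%), and none had an unadjusted p under 0.05, where 3.34% of genes did. The log2 values were 0.34 (SE 0.31) for Jak3, 0.37 (SE 0.35) for Tyk2, 0.91 (SE 0.94) for Socs1 and 0.87 (SE 0.75) for Cish. The other 6 lay between -0.19 for Stat3 and 0.08 for Stat5a, and the adjusted p was 1.00 for each. The higher Jak3 level of the Anaef pools was not shown to differ from its change in total RNA.

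**Figure D2:**
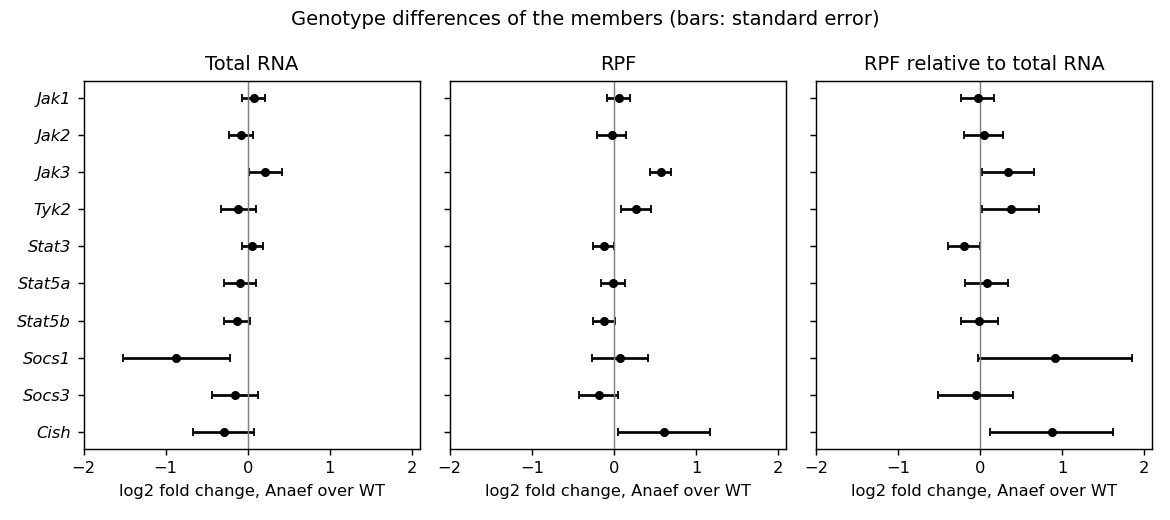
Log2 fold change of Anaef over WT for each gene in total RNA, in RPF and for RPF relative to total RNA (x axis); points are edgeR estimates and bars are standard errors. Jak3 in RPF (0.57) lies farthest from 0 for its error, and Socs1 and Cish have the widest bars.

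The members differed far more in how their RPF stood to their total RNA within a genotype. A log2 ratio of 0 means equal CPM after scaling, which is not the ratio of the median gene. The ratio also holds the differences between the library kits. Total RNA took polyadenylated RNA with a Nugen/Nextera kit, and RPF used a ribosome profiling kit. Over all genes 67.1% passed in Anaef and 74% in WT, so passing is the usual state and the size of the ratio carries the description. In each genotype 7 of the 10 members passed, 6 with more RPF than total RNA and 1 with less. Of all genes, 16.4% passed with more RPF in Anaef and 19.6% in WT, and 50.8% passed with less in Anaef and 54.4% in WT. Among protein-coding genes the shares were 21.5% in Anaef and 26.3% in WT with more RPF, and 36.5% in Anaef and 39.6% in WT with less. The median log2 ratio of the members was 0.83 in Anaef and 0.94 in WT. Over protein-coding genes it was -0.49 in Anaef and -0.37 in WT, and over all genes tested -1.79 in Anaef and -1.62 in WT.

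The Stat5 pair held the most RPF for their RNA with small errors. Stat5a had 249.7 ± 6.20 CPM in RPF and 22.9 ± 3.89 CPM in total RNA of Anaef, each on the scale of its own assay, and 251 ± 27.4 and 24.5 ± 3.31 CPM in WT (SD, n = 2 and 4). Its log2 ratio was 2.69 (SE 0.20) in Anaef and 2.64 (SE 0.18) in WT, at percentile 93.9 of protein-coding genes in Anaef and 94.4 in WT, with edgeR adjusted p of 1.73e-05 in Anaef and 1.15e-05 in WT. Stat5b had log2 ratios of 1.93 (SE 0.16) in Anaef and 1.96 (SE 0.17) in WT, at percentiles 88.0 in Anaef and 88.9 in WT. Stat3 was lower, at 0.77 (SE 0.16) in Anaef and 0.99 (SE 0.14) in WT.

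The difference within the Stat5 pair could be followed in the counts of single libraries, where scaling drops out. The count of Stat5b over that of Stat5a was 1.53 to 2.24 in the Anaef total RNA libraries and 1.59 to 2.28 in the WT libraries. In RPF it was 1.07 to 1.08 in the Anaef pools and 1.14 to 1.19 in the WT pools. Every pool lay below every total RNA library, and the genotypes overlapped in total RNA. The coding share of the main transcript, from which RPF come, was 61.3% in Stat5a and 45.3% in Stat5b. The 2 assays use fragments of other lengths, and 26.1% of the 50-base coding windows of Stat5a were shared with Stat5b. The part of either in the ratio was not tested.

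**Figure D3:**
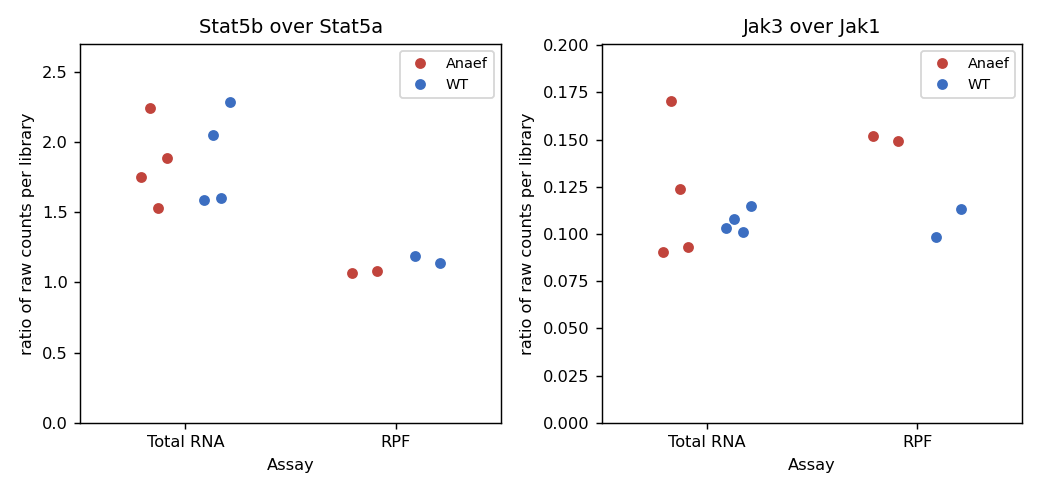
Ratio of raw counts in each library, Stat5b over Stat5a on the left and Jak3 over Jak1 on the right, by assay (x axis) with Anaef left of WT; each point is 1 library and the y axis starts at 0. Stat5b over Stat5a is lower in all RPF pools than in any total RNA library, and Jak3 over Jak1 is higher in both Anaef pools than in both WT pools.

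Among the kinases, Jak1 and Jak3 passed with more RPF than total RNA. The log2 ratio of Jak1 was 0.90 (SE 0.15) in Anaef and 0.95 (SE 0.16) in WT, and that of Jak3 was 1.25 (SE 0.24) in Anaef and 0.93 (SE 0.18) in WT. Tyk2 had 0.52 (SE 0.26) in Anaef and 0.16 (SE 0.21) in WT, and Jak2 had -0.27 (SE 0.18) in Anaef and -0.29 (SE 0.19) in WT. Neither passed in either genotype. The edgeR adjusted p was 0.113 in Anaef and 0.501 in WT for Tyk2, and 0.203 in Anaef and 0.204 in WT for Jak2. Tyk2 in Anaef passed under 3 alternatives, with a mean of at least 50 counts (adjusted p = 0.0490), with DESeq2 (0.0475) and without replicate 8 (0.0298). The count of Jak3 over that of Jak1, kinases that sit on the 2 chains of the same receptors, was 0.149 to 0.152 in Anaef pools and 0.0985 to 0.113 in WT pools. In total RNA it was 0.0905 to 0.170 in Anaef, which spanned the 0.101 to 0.115 of WT.

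The ratios of Socs1 and Cish lay on opposite sides of 0. Socs1 had 55 counts over the Anaef pools and 122 over the Anaef total RNA libraries, and 87 and 208 in WT, although the RPF libraries were far shallower. Its log2 ratio was 2.49 (SE 0.78) in Anaef and 1.59 (SE 0.44) in WT, with edgeR adjusted p of 0.0209 in Anaef and 0.0114 in WT. It did not pass without either Anaef pool (adjusted p of 0.0832 without 3B and 0.109 without 4B) or without the WT pool 2B (0.102).

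Cish had less RPF than total RNA, with a log2 ratio of -1.62 (SE 0.59) in Anaef and -2.48 (SE 0.46) in WT. The edgeR adjusted p was 0.0387 in Anaef and 0.00168 in WT. Many genes had ratios as low: Cish was at percentile 32.8 of protein-coding genes in Anaef and 22.6 in WT. Among all genes tested it was at percentile 51.3 in Anaef and 44 in WT. The call held in every alternative for WT. In Anaef it was lost in 6 of them, among them without pool 3B, with a log2 ratio of -1.07 and an adjusted p of 0.255. Socs3 was near the typical protein-coding gene, at -0.43 (SE 0.31) in Anaef and -0.36 (SE 0.35) in WT, and did not pass. The coding share of the main transcript was low in all 3, at 22.0% in Socs1, 26.6% in Socs3 and 27.2% in Cish, against 45.3% to 82.2% in the kinases and Stats. Its part in the ratios was not tested.

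**Figure D4:**
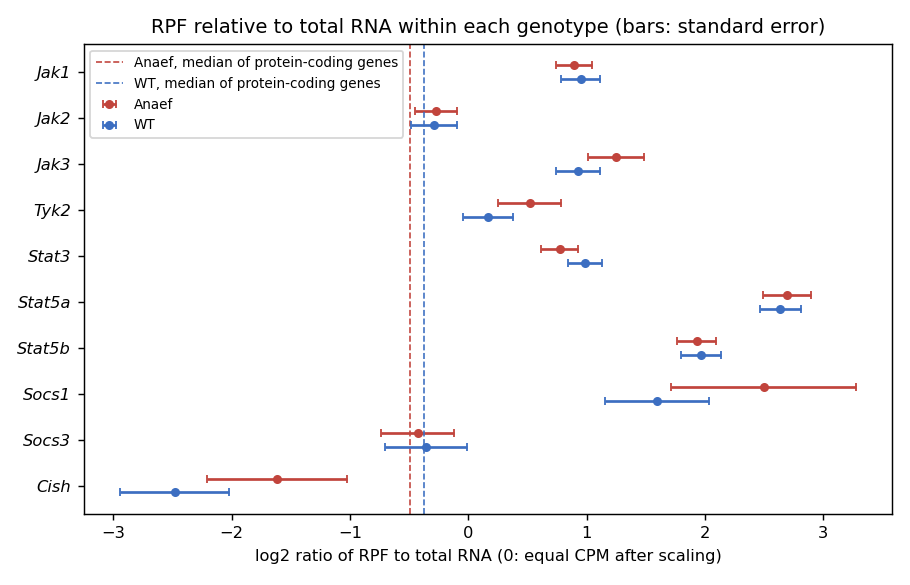
Log2 ratio of RPF to total RNA for each gene within Anaef (red, upper point of each pair) and WT (blue), with standard errors; dashed lines are the medians of protein-coding genes in each genotype. Stat5a is farthest to the right among genes with short bars, Cish farthest to the left, and the standard error bars of the genotypes overlap for every gene.

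Over the 8 total RNA libraries, the genes whose log2 CPM followed each inhibitor most closely were listed by Pearson's r among 8276 genes for Socs1 and 8275 for the other 2. For Socs1 they were Abhd18 (r = 0.95), Orc2 (0.95) and Pmpca (0.95), for Socs3 Zfp11 (0.94), Arhgap17 (0.92) and Rsrc1 (0.92), and for Cish Acaa1a (0.96), Eif3g (0.95) and Def6 (0.94). The 3 sets had no gene in common. With 8 points that share their libraries and depths and so many genes compared, values of this size are a description only.

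The rest of the pathway was read from 7 lists, and no gene of any list passed edgeR's adjusted threshold in total RNA, in RPF or in the interaction. Among the other family members, Stat6, the factor of IL-4 signalling, gave 153, 175, 195 and 163 CPM in Anaef total RNA, against 151, 117, 121 and 148 CPM in WT. All Anaef libraries lay above all WT libraries, where 3.59% of all genes had groups that did not overlap. The log2 fold change of Stat6 was 0.35 (SE 0.14, edgeR adjusted p = 0.865). In RPF it gave 356 and 296 CPM in Anaef, against 290 and 335 CPM in WT, which overlapped.

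For the 25 receptor chains, 23 rows were tested in total RNA, with a median log2 fold change of 0.16. In RPF 15 rows were tested, with a median of -0.05. Il10rb and Ifnar2 were deposited as 1 joined row, which was counted once and not for each gene. Il7r, the chain through which IL-7 keeps naive T cells alive, gave 402 and 426 CPM in Anaef RPF, against 657 and 540 CPM in WT RPF, a log2 fold change of -0.53 (SE 0.15, unadjusted p = 0.00865, edgeR adjusted p = 0.344). Il7r passed with DESeq2 (adjusted p = 0.0119) and with no filter on low counts (0.0188). Il6ra, the IL-6 receptor chain, gave 145 and 154 CPM in Anaef RPF, against 205 and 214 CPM in WT RPF (-0.49, SE 0.14, edgeR adjusted p = 0.344), and it passed with DESeq2 (0.0256). Both genes were lower in each Anaef pool than in each WT pool, as were 22.5% of all genes. In total RNA Il7r gave 360, 333, 332 and 394 CPM in Anaef, against 430, 454, 409 and 376 CPM in WT, and the groups overlapped.

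Of the 22 cytokine ligands only 3 were tested in each assay. Il2, the growth factor that T cells make, was at 0.211, 0.964, 0.642 and 1.60 CPM in Anaef total RNA and 0.400, 0.631, 0.158 and 0.0401 CPM in WT, near the lower end of what these depths can read. Il3, Il6, Il9, Il12b and Ifnb1 had no count in any library.

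Of the 15 genes listed as other inhibitors, 9 were above 0 in total RNA (median log2 fold change 0.20). In RPF 5 of the 14 tested were above 0 (median -0.20). Some genes stood in more than 1 list, as Stam did here and among the partners and cofactors. Peli1, a ubiquitin ligase that dampens T cell activation, gave 138 and 105 CPM in Anaef RPF, against 182 and 236 CPM in WT RPF (-0.78, SE 0.20, edgeR adjusted p = 0.344). Peli1 passed with DESeq2 (adjusted p = 0.01003) and with no filter on low counts (0.00266). Pias2, of a family named for binding activated Stats, gave 14.3 and 10.8 CPM in Anaef RPF, against 28.8 and 22.8 CPM in WT RPF (-1.03, SE 0.26, edgeR adjusted p = 0.344), and it passed with no filter (0.00318). The pools did not overlap for either gene, as for 44.8% of all genes.

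Genes that Stat5 and Stat3 are known to induce did not pass edgeR's test either. Of the 15 Stat5 targets 14 were tested in total RNA, where the median was 0.20, and 11 in RPF, with a median of 0.17. Lta, which encodes lymphotoxin alpha, gave 16.1, 7.37, 9.19 and 8.90 CPM in Anaef total RNA, against 4.96, 7.20, 7.20 and 5.45 CPM in WT (0.74, SE 0.31, edgeR adjusted p = 0.871). All Anaef libraries were above WT, 1 of them by far less than the spread within Anaef. Groups that did not overlap were found for 3.59% of all genes in total RNA. Pim1, a kinase that both Stats induce, gave 19.2, 25.5, 12.7 and 23.7 CPM in Anaef total RNA and 15.3, 20.2, 19.4 and 12.1 CPM in WT total RNA, which overlapped. In RPF Pim1 gave 53.6 and 50.6 CPM in Anaef, against 56.5 and 70.2 CPM in WT (-0.28, SE 0.19, edgeR adjusted p = 0.585). Both Anaef pools were below WT, as for 22.5% of all genes.

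Of the 14 Stat3 targets 13 were tested in total RNA, where the median was 0.28, and 14 in RPF, with a median of -0.02. Bcl6, the factor of follicular helper T cells, gave 84.3 and 82.3 CPM in Anaef RPF, against 55.1 and 59.5 CPM in WT RPF (0.54, SE 0.16, edgeR adjusted p = 0.344). The pools were tight in both genotypes and did not overlap. Both Anaef pools lay above WT for 22.3% of all genes. In total RNA Bcl6 gave 38.5, 57.0, 36.4 and 56.4 CPM in Anaef, against 32.1, 44.9, 33.7 and 31.1 CPM in WT, with 1 WT library inside the Anaef range. Of the 10 partners and cofactors, 9 were above 0 in total RNA, with a median of 0.15, and 7 of the 9 tested were above 0 in RPF, with a median of 0.04. Of all genes, 49.3% were below 0 in total RNA and 49.2% in RPF.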

How the data were processed

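The authors deposited raw read counts per gene for 12 libraries, with RPF counts marked as masked per the labels. The submitters' processing notes name TopHat 1.4.1, Bowtie 0.2.17 and GRCm38. What tool and annotation did the counting, with which strand setting, and what was masked, the sources used here do not give. Genes were matched to GENCODE M21, 263 rows joining several identifiers.

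The test was edgeR's (version 4.0.16, R 4.3.3; quasi-likelihood F test, TMM scaling, filterByExpr, Benjamini-Hochberg adjustment over all genes tested at 0.05). The fits used the 8 libraries of total RNA, the 4 of RPF, all 12 for the interaction, and the 6 of each genotype for RPF against total RNA. Standard errors came from the fold change and F. Log2 CPM used a prior count of 2. The procedure was tested on simulated counts. Percentiles are ranks of the log2 value among tested protein-coding genes, or among all genes tested where stated.

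The members and lists were chosen with earlier results of these data known. Named were Rasgrp1, the members, in each list any called gene and the 2 with the smallest p in total RNA and in RPF, the 3 genes most like each Socs gene with at least 10 CPM, and the 2 most abundant markers of a list. Some results of the lists are not reported here.

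The alternatives tried were DESeq2 1.42.0, limma-voom 3.58.1, RLE size factors, other count filters, a fit on all 12 libraries, leaving out each library, and leaving out mitochondrial, Ig and TCR genes. Chosen after seeing the data were main transcript lengths for levels per kb and a fit on nuclear protein-coding genes.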

Additional observations from a re-analysis of the deposited data

Results flagged for a closer look

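In total RNA, Stat5a in WT replicate 1, at 29.5 CPM, lay far from the other 3 WT libraries, which lay at 22.7 to 23.3 CPM. Its gap to the nearest of them exceeded Dixon's 95% critical value for 4 samples. It was 1 of 20 groups of 4 looked at, and chance alone marks about 1 in 20. Without that library the log2 fold change of Stat5a moved to 0.00114, within the range given below.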

How the results depend on the processing

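No paired analysis was possible because the Anaef and WT libraries share no replicate numbers. Total RNA and RPF could not be paired either, because the labels do not say which animals were combined in which pool. The fits over both assays therefore treated their libraries as independent, although they may share animals. In total RNA, 4 genes were called, 120 with DESeq2, 2 with limma-voom, and 0 without mitochondrial, Ig and TCR genes or on nuclear protein-coding genes, and 0 to 3 with 1 library left out. In RPF 0 were called, 207 with DESeq2, 514 with no filter on low counts, 6 without mitochondrial, Ig and TCR genes, 6 on nuclear protein-coding genes, and 0 to 211 with 1 pool left out. DESeq2 called 1 member in RPF, Jak3, and of the genes named from the lists Il7r, Il6ra and Peli1. With no filter Il7r, Peli1 and Pias2 passed. In the interaction 0 were called, 10 with DESeq2 and 0 to 1 with 1 library left out. For RPF against total RNA, nuclear protein-coding genes alone gave 6819 calls in Anaef and 7874 in WT, and limma-voom gave 7909 in Anaef. The cause was not tested beyond the smaller number of genes or samples.

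Directions turned for the values that follow, none of them past the test's threshold. In the interaction the log2 value of Jak1 became 0.00865 with RLE size factors and 0.00873 with DESeq2, and that of Stat5b became 0.0288 with RLE size factors, 0.0319 with DESeq2, 0.0134 with limma-voom and 0.0179 with a mean of at least 50 counts. With 1 library left out, total RNA values ran from -0.0118 to 0.149 for Jak1, -0.222 to 0.00114 for Stat5a and -0.349 to 0.000368 for Socs3. RPF values ran from -0.0131 to 0.116 for Jak1, -0.19 to 0.15 for Jak2, -0.13 to 0.10 for Stat5a, -0.21 to 0.35 for Socs1, -0.25 to 1.17 for Cish and -0.0150 to 1.28 for Osm. Interaction values ran from -0.137 to 0.0311 for Jak1, -0.13 to 0.20 for Jak2, -0.0548 to 0.196 for Stat5a, -0.113 to 0.0580 for Stat5b, -0.27 to 0.12 for Socs3 and -0.00334 to 1.41 for Cish. The log2 ratio of Tyk2 in WT ran from -0.0181 to 0.323.

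Depth limits Socs1 in total RNA and Cish and Socs1 in RPF. Members called for RPF against total RNA numbered 5 to 8 in Anaef and 6 to 7 in WT over the alternatives. With RLE size factors 40 of 40 levels stayed within 1 SD, and with main transcript lengths 25 of 40 did.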
